A study of Homo sapiens with 4 samples.

Results

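hsa-miR-21-5p, the guide strand of the miR-21 hairpin, and hsa-miR-21-3p, its passenger strand, were followed through small RNA sequencing of extracellular vesicles (EVs) from MDA-MB-231 cells, an established human line of triple-negative breast cancer, wild type in genotype per the labels. The 2 members were chosen by name, as the mature products of 1 hairpin, among 1619 features listed for at least 1 replicate. Both members were among the 539 listed for both replicates. Of the 4 libraries, 2 formed the group 231 EV, from cells held for 12 h in EV-free DMEM, and 2 formed the group 231 -G EV, from cells held for the same 12 h in medium lacking glucose. All cells had been grown in DMEM with 10% fetal bovine serum beforehand, and EVs were collected by ultracentrifugation at 110000 × g. The replicate number also marked the library preparation. RNA of replicate 1 was chemically and enzymatically repaired at its ends and demethylated before adapter ligation, whereas for replicate 2 the labels name a TruSeq RNA kit for the RNA and an NEBNext small RNA kit for the library, so preparation and replicate cannot be told apart. No label said that the replicates were separate cultures, so p-values of fits over all 4 libraries measure only the spread between these libraries. Those of exact tests on reads cover counting error alone.

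Most miRNA hairpins are cut by Drosha and then Dicer into a duplex of a 5p and a 3p strand. 1 strand, the guide, is loaded into an Argonaute protein and directs it to messenger RNAs mainly through its seed, bases 2 to 8, while the other strand, the passenger, is mostly degraded. miR-21 is among the most abundant miRNAs of many solid tumours, breast cancer included, where it is known to repress the tumour suppressor PDCD4.

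The guide sequence is given because every value of hsa-miR-21-5p refers to it, and hsa-miR-590-5p is given because it was the other mature miRNA of the RefSeq table (GRCh38.p14) with the same seed that was listed in the data. Capitals mark the seed, and sequences run 5′ to 3′.
hsa-miR-21-5p: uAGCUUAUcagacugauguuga
hsa-miR-590-5p: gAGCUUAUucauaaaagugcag
The guide lies at chr17:59841273-59841294 on the plus strand and hsa-miR-590-5p at chr7:74191213-74191234 on the plus strand. Position by position, 8 of 22 bases were identical, of which the seed made up 7. hsa-miR-590-5p was listed for replicate 2 only and had 6 reads in each of its libraries, so nearly all reads of this seed there were those of miR-21. hsa-miR-21-3p had no entry in the RefSeq table.

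The hairpin spans 72 bases at chr17:59841266-59841337 on the plus strand, and it is given to show where the guide sits, with the guide in capitals.
MIR21 hairpin: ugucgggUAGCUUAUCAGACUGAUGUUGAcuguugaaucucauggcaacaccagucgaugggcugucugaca
The guide took bases 8 to 29 of the hairpin, and RNAfold paired 19 of its 22 bases, the 7 seed bases among them, in a fold of -34.6 kcal/mol. In the GENCODE 29 annotation of GRCh38, MIR21 (ENSG00000284190.1) lay within the VMP1 gene (chr17:59707192-59842255, plus strand), a gene of autophagosome formation. It fell inside exon 1 of a retained-intron transcript and began 174 bases past the end of a protein-coding VMP1 transcript. The tetramers GGAG and CAUG, searched on the RNA strand because both have been described as EV sorting motifs of other miRNAs, did not occur in the guide. Among the 667 listed mature sequences of 22 bases, 13.5% held GGAG and 7.50% held CAUG. Like 540 of 1423 listed miRNAs with a RefSeq sequence (37.9%), the guide began with U.

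Totals were 18397 (231 EV) and 15597 (231 -G EV) reads in replicate 1, and 224966 and 170894 reads in replicate 2. The limit allowed by a count of 0, taken as 3 reads, was 163, 192, 13.3 and 17.6 counts per 1000000 reads (CPM) in that order. In replicate 1, hsa-miR-182-5p took 51.0% of reads in 231 EV and 2.73% in 231 -G EV, and hsa-miR-451a, an erythrocyte miRNA, took 19.4% and 40.8%. In replicate 2 each of them took at most 0.254%. The 6 blood cell markers together took 20.1%, 42.8%, 0.874% and 0.377% of reads in the order of the totals, and from 0 to 1 of them was at 0 in a library. Nearly all of this in replicate 1 was hsa-miR-451a, and without it, the guide and hsa-miR-182-5p, the other blood markers took 2.26%, 3.81%, 1.07% and 0.442% of the remaining reads. The 4 markers of basal-like or mesenchymal lines (hsa-miR-221-3p, hsa-miR-222-3p, hsa-miR-100-5p and hsa-miR-146a-5p), the class of the labelled line, were all above 0 in every library and took 0.239% and 0.391% of reads in replicate 1 against 5.82% and 5.48% in replicate 2, or 0.865% and 0.728% against 8.39% and 7.17% of the same remaining reads. The 7 epithelial markers took 0.114%, 0.583%, 0.0867% and 0.0205% in the order of the totals, above the basal-like markers in 231 -G EV of replicate 1, the 3 liver markers between 0.216% and 0.718%, and the 3 muscle markers up to 1.47% in 231 -G EV of replicate 1. The part of these shares in the results below was not tested, except where values without hsa-miR-182-5p and hsa-miR-451a are given.

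In replicate 2 the guide was the most abundant of all features. It had 68029 reads in 231 EV, or 30.2% of the library (95% Wilson interval 30.1 to 30.4), and 39805 reads in 231 -G EV, or 23.3% (23.1 to 23.5). It stood 3.76 times above the next feature, hsa-let-7a-5p, in 231 EV and 2.10 times above the next, hsa-miR-16-5p, in 231 -G EV. In replicate 1 it had 356 reads in 231 EV, or 1.94% (1.75 to 2.14), and 430 reads in 231 -G EV, or 2.76% (2.51 to 3.03). It ranked sixth in both of these libraries, behind hsa-miR-182-5p, hsa-miR-451a, hsa-miR-3131, hsa-miR-143-3p and hsa-let-7f-5p in 231 EV, and behind hsa-miR-451a, hsa-miR-148a-3p, hsa-miR-3131, hsa-let-7f-5p and 1 feature more in 231 -G EV. The ranges of the 2 media therefore overlapped, and the levels fell into a low pair and a high pair by replicate.

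The passenger was seen in all 4 libraries. It had 2 reads in 231 EV and 1 in 231 -G EV of replicate 1, and in replicate 2 it had 231 and 194 reads in the same order. Its level was 109 CPM (95% Wilson interval 29.8 to 396) and 64.1 CPM (11.3 to 363) in replicate 1, both under the limit of 3 reads. In replicate 2 it was 1027 CPM (903 to 1168) and 1135 CPM (986 to 1306). It ranked 76th of 531 features above 0 in 231 EV of replicate 2 and 69th of 492 in 231 -G EV, so the passenger was itself among the better covered features there. In replicate 1 its 2 reads were shared by 80 features and its single read by 193, so its order carried no information. Reads were amplified by PCR with no molecular identifier and do not stand for separate molecules, so the error given for them is that of counting alone.

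**Figure D1:**
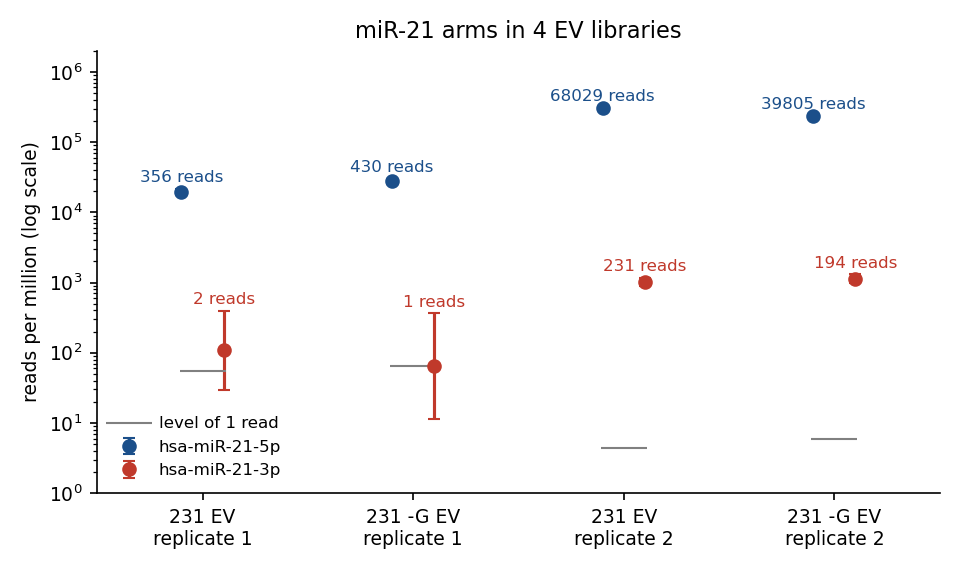
Level of both miR-21 strands in the 4 libraries, in reads per 1000000 on a log axis with 95% Wilson intervals, the number of reads beside each point and a grey bar at the level of 1 read. The guide sits at 1.94% to 2.76% of reads in replicate 1 and at 23.3% to 30.2% in replicate 2, and the passenger rests on 2 and 1 reads in replicate 1.

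With library totals, the share of both strands was higher in replicate 2 than in replicate 1. The guide was 15.6 times higher (95% exact conditional interval 14.1 to 17.4) in 231 EV and 8.45 times higher (7.68 to 9.31) in 231 -G EV. The passenger was 9.45 times higher (2.59 to 78.5) in 231 EV and 17.7 times higher (3.14 to 703) in 231 -G EV, so its intervals covered the folds of the guide. These folds depended on hsa-miR-182-5p and hsa-miR-451a. Without both in the totals, the guide stood at 6.54% and 4.88% of reads in 231 EV and 231 -G EV for replicate 1 and at 30.4% and 23.4% for replicate 2. Its folds were then 4.64 (4.18 to 5.16) in 231 EV and 4.78 (4.35 to 5.27) in 231 -G EV, and those of the passenger were 2.80 (0.768 to 23.3) and 10.0 (1.78 to 398), the former with an interval that included 1. In edgeR's quasi-likelihood test over all 4 libraries, with the medium as a covariate, the guide had a log2 fold change of 3.52 (SE 0.89, adjusted p = 0.00147) and the passenger of 3.61 (SE 1.31, adjusted p = 0.0394). Of 384 miRNAs tested, 66 were called (17.2%), 37 higher and 29 lower. A call by edgeR, limma or DESeq2 required an adjusted p below 0.05 together with a log2 fold change beyond 1 in size. The median log2 fold change over all 384 was 0.75, so the guide lay 2.77 and the passenger 2.86 above the median. Library totals formed without hsa-miR-451a shift all folds nearly alike, so these distances had to stay close (2.77 and 2.89) and this says nothing on their stability. The distances were 3.32 and 3.41 with DESeq2, and 3.36 and 3.45 over miRNAs above 0 in all 4 libraries. With limma on log2(CPM + 1) they were 2.12 and 2.27. They were 2.17 and 3.22 without the 231 EV libraries and 1.76 and 1.02, above a median of 2.21, without the 231 -G EV libraries. Without hsa-miR-451a the median fell to 0.22, and the log2 fold change was 2.99 (SE 1.79) for the guide and 3.11 (SE 1.43) for the passenger. Neither strand was then called (adjusted p = 0.336 for the guide and 0.168 for the passenger, edgeR), and 32 miRNAs were, 10 of them higher. Without hsa-miR-182-5p and hsa-miR-451a, edgeR gave the guide a log2 fold change of 2.24 (adjusted p = 0.0135), still called, and the passenger one of 2.32 (adjusted p = 0.113), no longer called. limma on log2(CPM + 1) called 0 miRNAs in this comparison, and on log2(CPM + 10) it called 23, with neither strand among them.

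Within replicates the guide moved in opposite directions between the media when library totals were the reference. In replicate 1 its share was 1.42 times higher in 231 -G EV than in 231 EV (95% exact conditional interval 1.24 to 1.64, Fisher's exact test, adjusted p = 2.59e-05). In replicate 2 its share fell to 0.770 of that in 231 EV (0.761 to 0.780), with a Fisher's exact p below the smallest number that SciPy represents. In replicate 1, Fisher's exact test called 63 of 1315 features (4.79%, or 9.40% of the 670 with reads). Of these calls, 52 were higher and 11 lower in 231 -G EV. A call by an exact test required an adjusted p below 0.05, with no limit on the fold. In replicate 2 Fisher's exact test called 108 of 843 features (12.8%, or 17.5% of the 618 with reads), 57 higher and 51 lower. Each of these tests compares 2 libraries and not the media, since there was 1 library of each medium per preparation.

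The passenger passed the test in neither replicate. Its ratio was 0.590 (0.0100 to 11.3) on 2 and 1 reads in replicate 1, where no change could be detected at this depth. In replicate 2 the ratio was 1.11 (0.909 to 1.34, Fisher's exact test, p = 0.304, adjusted p = 0.912), an interval that lay above the whole interval of the guide.

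Among features with at least 50 reads over both libraries of a replicate, the guide was not at the edge of the distribution. In replicate 1 the median ratio of 51 such features was 2.11, and 31 had a higher ratio than the guide. In replicate 2 the median ratio of 166 such features was 1.01, and 54 had a lower ratio than the guide. Of the other features with the most reads in replicate 2, hsa-let-7a-5p (ratio 0.671) and hsa-miR-125b-5p (0.766) were lower in 231 -G EV as well, while hsa-miR-16-5p (1.58) and hsa-miR-29a-3p (2.00) were higher.

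**Figure D2:**
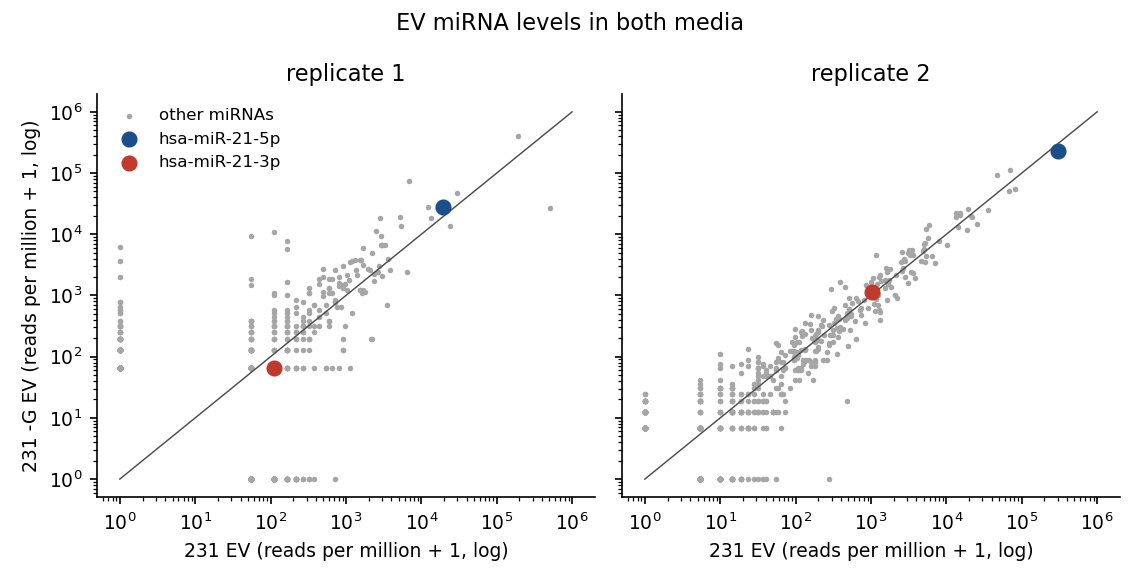
Level of every listed feature in 231 EV (horizontal) and 231 -G EV (vertical), in reads per 1000000 plus 1 on log axes, with the line of equal levels, 1 panel per replicate. The guide (blue) lies above the line in replicate 1 (ratio 1.42) and below it in replicate 2 (0.770), at the top right of all features there, and the passenger (red) lies on 2 and 1 reads in replicate 1.

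The difference between the replicates was itself tested. The odds ratio of the guide in replicate 1 was 2.05 times that in replicate 2 (95% interval 1.78 to 2.37, Zelen's exact test of equal odds ratios, p = 6.16e-23, adjusted p = 2.27e-21). Zelen's test called 41 of 295 miRNAs (13.9%), so such a difference was found for other miRNAs too. The passenger had a ratio of odds ratios of 0.533, with an exact p of 1.

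The direction of the guide in replicate 1 turned with the reference. When totals were formed without hsa-miR-182-5p, its ratio in replicate 1 was 0.718 (0.622 to 0.829, Fisher's exact test, p = 3.18e-06), against 0.770 in replicate 2, and the ratio of odds ratios was 1.01 (0.878 to 1.17, Zelen's exact test, p = 0.884). Without both hsa-miR-182-5p and hsa-miR-451a, the ratio in replicate 1 was 0.746 (0.647 to 0.861), and with TMM factors, which scale libraries on the bulk of miRNAs, it was 0.793 (0.688 to 0.916). Under these 3 references the guide was thus lower in 231 -G EV in both replicates.

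With hsa-miR-451a alone left out, the ratio of the guide in replicate 1 was 1.94 (1.68 to 2.24). Against the reads of hsa-miR-16-5p, which besides U6 served the study for RT-qPCR normalization, it was 2.11 (1.83 to 2.44). In replicate 2 it was 0.489 (0.483 to 0.495). Intervals against hsa-miR-16-5p take its own reads as fixed and leave out their counting error, so they are too narrow, above all in replicate 1. hsa-miR-16-5p had 70 and 40 reads in replicate 1, so its own ratio of 0.674 (0.445 to 1.01) was poorly determined there. The split of all calls in replicate 1 turned as well, from 52 higher and 11 lower with the deposited totals to 14 higher and 30 lower without hsa-miR-182-5p. In replicate 2 the ratio of the guide stayed between 0.489 and 0.770 under all of these references, always below 1. The passenger in replicate 2 was at 1.01 (0.826 to 1.22, Fisher's exact test, p = 0.961) with the guide left out of the totals, and at 0.702 (0.577 to 0.853, p = 0.000338 by the exact test) against hsa-miR-16-5p.

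**Figure D3:**
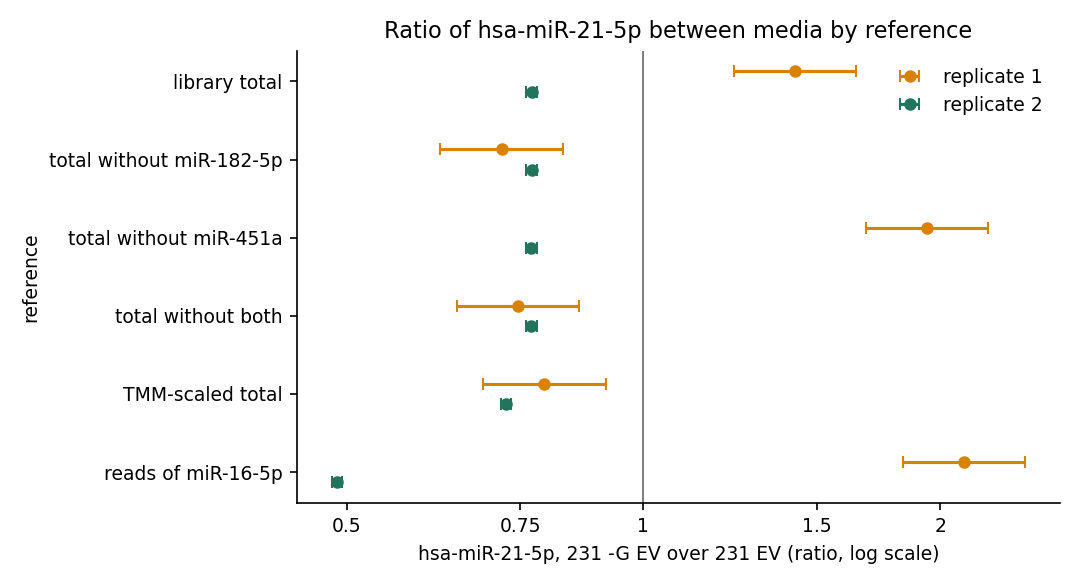
Ratio of hsa-miR-21-5p in 231 -G EV over 231 EV within each replicate (log axis, 95% exact conditional intervals) under 6 references, with a vertical line at 1. Intervals against hsa-miR-16-5p leave out the counting error of its own reads and are too narrow. Replicate 1 crosses the line, from 1.42 with library totals to 0.718 without hsa-miR-182-5p, whereas replicate 2 stays between 0.489 and 0.770.

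Across both replicates neither strand differed between the media beyond the spread of the libraries. With the replicate block, edgeR gave the guide a log2 fold change of 0.07 (SE 0.81, adjusted p = 0.999) and the passenger one of -0.06 (SE 1.18, adjusted p = 0.999). None of the 384 miRNAs was called, 0 of 384 (0.0%), 5 had an unadjusted p under 0.05, limma also called 0 and DESeq2 called 1. The median log2 fold change of all miRNAs was 0.20 with library totals and -0.14 with TMM factors. Relative to that median, the guide was at -0.14 and -0.26 and the passenger at -0.27 and -0.13. These signs were not stable. Without replicate 2 the guide was at 0.36 and the passenger at -0.90, and without replicate 1 they were at -0.33 and 0.19. With 2 libraries against 2, an exact permutation test of a single miRNA cannot give a p under 0.333.

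The guide outnumbered the passenger by more than 2 orders of magnitude in every library. Per passenger read there were 178 guide reads in 231 EV and 430 in 231 -G EV of replicate 1, and 294 and 205 in replicate 2. The passenger thus made up 0.559% (95% Clopper-Pearson interval 0.0677 to 2.00) and 0.232% (0.00587 to 1.29) of the reads of both strands in replicate 1, and 0.338% (0.296 to 0.385) and 0.485% (0.419 to 0.558) in replicate 2. The order of the media differed between the replicates, but the wide intervals of replicate 1 covered both values of replicate 2. Unlike the levels, this balance uses only reads of the hairpin and no library total.

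In replicate 2 the balance shifted towards the passenger in 231 -G EV, with an odds ratio of 1.44 (95% interval 1.18 to 1.75, Fisher's exact test, p = 0.000233, adjusted p = 0.00346). The same test called 17 of 149 hairpins with at least 10 reads (11.4%), 10 of them towards the 3p strand. In replicate 1 the odds ratio was 0.414 (0.00701 to 7.99, Fisher's exact test, p = 0.593), and 0 of 65 hairpins were called at this depth. The exact test stratified by replicate gave an odds ratio of 1.42 (1.17 to 1.73, p = 0.000357, adjusted p = 0.00275), a value carried by replicate 2, which held 425 of the passenger reads against 3 in replicate 1. It called 11 of 54 hairpins (20.4%). The odds ratios of the 2 replicates could not be told apart by Zelen's exact test (p = 0.557), with 3 passenger reads in replicate 1. Since replicate 2 held 1 library of each medium, the shift is one between 2 libraries.

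Between the preparations no shift of the balance was detected. The exact test stratified by medium gave an odds ratio of 1.10 (0.372 to 5.37, p = 1) for replicate 2 over replicate 1, while 14 of 54 hairpins were called (25.9%). The interval of the balance reached from a fold of 0.372 to one of 5.37.

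Among hairpins listed with both strands and with at least 10 reads, miR-21 lay in the lower part of the order by 3p share. Over both media, the 3p strand made up 0.380% of its reads in replicate 1, where 15 of 65 hairpins were lower and 49 higher. In replicate 2 it made up 0.393%, where 27 of 149 were lower and 121 higher. This order places every hairpin dominated by its 3p strand above miR-21. By the share of the less abundant strand, whichever it was, 25 of 65 hairpins were more one-sided than miR-21 in replicate 1 and 43 of 149 in replicate 2. The median 3p share of hairpins dominated by the 5p strand was 0.629% in replicate 1 and 1.89% in replicate 2. Next to miR-21 in this order stood miR-10a and let-7i below it, followed by 13 hairpins tied at 0 reads of the 3p strand, and miR-30d, let-7a and miR-1224 above it in replicate 1, and let-7i, miR-192 and miR-183 below it and miR-30d, miR-196a and miR-30b above it in replicate 2. The named neighbours in replicate 1 had 1 read each of the 3p strand, and in replicate 2 miR-192, miR-183, miR-196a and miR-30b had 1 or 2, so the order of these hairpins around miR-21 is within counting error. In replicate 2 let-7i, with 21 such reads, was at 0.256% (0.158 to 0.391).

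**Figure D4:**
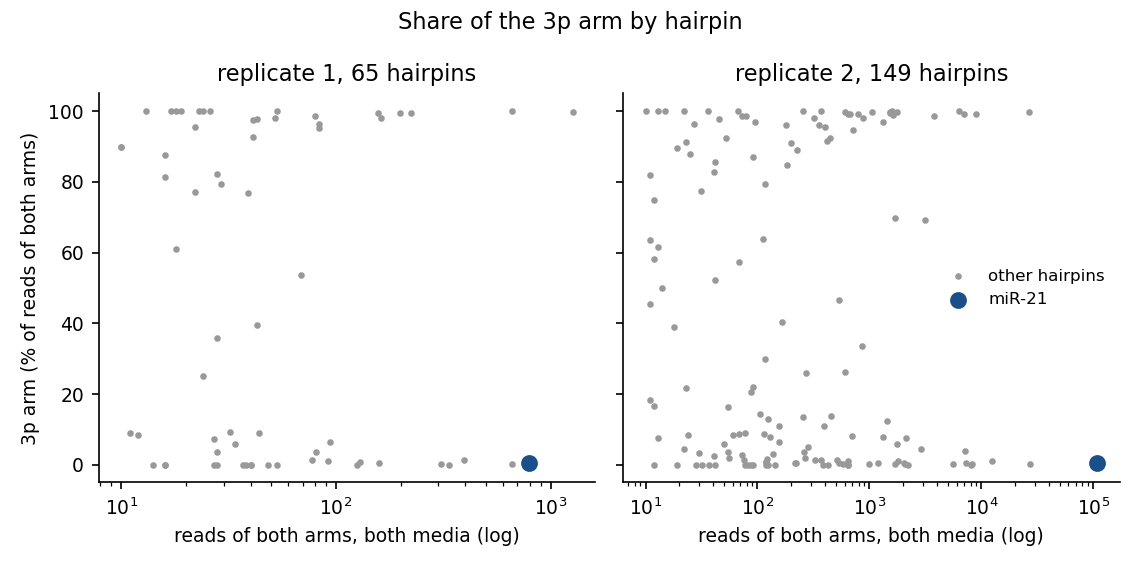
Share of the 3p strand among the reads of both strands (per cent) against the reads of both strands summed over both media (log axis), 1 point per hairpin with at least 10 reads, 1 panel per replicate. miR-21 (blue) lies at 0.380% in replicate 1 and 0.393% in replicate 2, at the bottom of the axis and at the far right of replicate 2.

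Some miRNAs followed the guide closely over the 4 libraries. Likeness was measured as the distance between log2(CPM + 1) profiles centred on their own mean, over 53 miRNAs with at least 10 reads in every library, and is a description. The nearest were hsa-miR-103a-3p (distance 0.51), hsa-let-7a-5p (0.67), hsa-let-7b-5p (0.73), hsa-miR-93-5p (0.78) and hsa-miR-30a-5p (1.04), against a median of 3.42. With at least 50 reads required in every library, 15 miRNAs remained, of which hsa-let-7a-5p was the nearest, and the other 4 of these 5 were not ranked because each had fewer reads than that in a library of replicate 1. By Pearson correlation 4 of the 5 were shared, again with hsa-let-7a-5p first. hsa-miR-103a-3p had 26 and 34 reads in replicate 1 and 4221 and 1975 in replicate 2, low and high in the same libraries as the guide. With 4 libraries in a low and a high pair, the distance reflects mostly the step between the replicates.

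The guide was also set beside 18 other miRNAs known as oncogenic in breast cancer, of which 16 were listed for both replicates and tested. edgeR called 0 of these 16 between the media, and their median log2 fold change was 0.15, beside 0.20 for all miRNAs. In replicate 1 with library totals, Fisher's exact test called 3 of 15 with reads, all higher in 231 -G EV, beside 9.40% of the 670 features with reads. These were hsa-miR-27a-3p (ratio 4.06), hsa-miR-10b-5p (2.95) and hsa-miR-92a-3p (2.08). When totals were formed without hsa-miR-182-5p, a setting chosen after seeing the data, their ratios were 2.05, 1.49 and 1.05, and none of them passed the test. The 1 member called of 15 was then hsa-miR-20a-5p at 0.324, beside 44 of all 1314 features tested in that setting. In replicate 2 Fisher's exact test called 10 of 16, 8 higher and 2 lower, beside 17.5% of the 618 features with reads. Such calls depend on depth, and the list was not matched in reads to the other features. At least 50 reads were reached by only 51 features in replicate 1 and 166 in replicate 2, so these shares cannot be compared. hsa-miR-27a-3p was higher in replicate 2 too (2.40), as were hsa-miR-19b-3p (2.04) and hsa-miR-221-3p (1.35), while hsa-miR-10b-5p (0.335) and hsa-miR-181a-5p (0.561) fell like the guide. In replicate 1, hsa-miR-181a-5p was at 1.60 with library totals, without passing the test.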

How the data were processed

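Small RNAs of EVs from MDA-MB-231 cells were sequenced in 4 libraries, 2 per medium. The authors deposited whole-number read counts per miRNA, beside values that the file headers call CPM for replicate 1 and TPM for replicate 2. Both deposited columns, CPM and TPM, equalled the count over the library total times 1000000. The study's methods describe trimming, removal of other RNA classes, Bowtie2 alignment and matching to miRBase 21, and the submitters' processing notes also name cutadapt, Bowtie, edgeR and the build hg38. Which step served which preparation is not given in the sources used here. The file holds 1 table per replicate, of 1315 miRNAs and of 810 named and 33 predicted ones, and a miRNA missing from a table had no known value there.

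Counts were fitted mainly with edgeR 4.0.16 in R 4.3.3 (quasi-likelihood F test), using library totals and the replicate number as a block, for the 384 of 539 shared miRNAs above 0 in at least 2 libraries. All tests were two-sided, with Benjamini-Hochberg adjustment over all features tested. Both strands passed this filter. The replicate number pairs the libraries because the labels tie it to the preparation, and deviations of same-numbered libraries correlated with r = 0.59 over 384 miRNAs. Within replicates, Fisher's exact test compared reads of a feature with all other reads, and Zelen's and stratified exact tests used SciPy 1.17.1 and R. Alternatives were limma 3.58.1, DESeq2 1.42.0, other totals, filters and pseudocounts, and replicates left out. Scripts were tested on simulated data. Sequences came from RefSeq (GRCh38.p14), which held 1423 of the 1619 listed names, annotation from GENCODE 29, and folds from RNAfold 2.7.2. Named were both strands, seed relatives, the 4 features with the most reads per library, hsa-miR-16-5p, the 5 most alike miRNAs, neighbouring hairpins and oncogenic miRNAs given as examples. The members, lists and tests were chosen with earlier results of these data known.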

Additional observations from a re-analysis of the deposited data

Results flagged for a closer look

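With library totals, the difference between the 231 -G EV and 231 EV libraries in hsa-miR-21-5p was not the same in the replicates, each of which held 1 library per medium. There the odds ratio of 231 -G EV over 231 EV was 1.44 in replicate 1 and 0.700 in replicate 2, a ratio of 2.05 by Zelen's exact test of equal odds ratios (p = 6.16e-23). Without hsa-miR-182-5p the odds ratios were 0.710 and 0.700 and did not pass the test (p = 0.884, Zelen's exact test), and against hsa-miR-16-5p they were 2.11 and 0.489. Replicate number and preparation cannot be told apart, and the part of either was not tested.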

How the results depend on the processing

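Neither strand was called between the media across replicates under any setting with a test, and the direction was not stable. The log2 fold change of hsa-miR-21-5p, 0.07, became -0.40 with TMM factors, -0.43 without hsa-miR-182-5p, -0.40 without hsa-miR-182-5p and hsa-miR-451a, -0.24 with DESeq2 and -0.30 with no replicate block, and ranged from -0.38 to 0.51 when 1 replicate was left out. That of hsa-miR-21-3p became 0.0273 without hsa-miR-451a and 0.0852 with no replicate block, and ranged from -0.75 to 0.14 when 1 replicate was left out. The replicate block changed no call of either strand. 1 miRNA in place of 0 was called without hsa-miR-182-5p, without both, with DESeq2 and over miRNAs above 0 in any library. Between the replicates, the log2 fold change of the guide was 2.99 without hsa-miR-451a (adjusted p = 0.336, edgeR) and 3.52 with limma at either pseudocount, 1 or 10 CPM (adjusted p = 0.109 and 0.0556), each past the threshold no longer. It was 2.24 without hsa-miR-182-5p and hsa-miR-451a (adjusted p = 0.0135, edgeR), still called, and 3.08 without the 231 EV and 3.97 without the 231 -G EV libraries, with no test. The passenger was not called without hsa-miR-451a, without both or with limma (adjusted p from 0.0556 to 0.168, edgeR and limma). Its log2 fold change was 3.11 without hsa-miR-451a, 2.32 without both, and 3.68 and 3.54 with limma at 1 and 10 CPM. The calls, 66, became 32 without hsa-miR-451a, 0 and 23 with limma, and 120 with no medium term.

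Within replicate 1 the ratio of the guide, 1.42, became 0.718 without hsa-miR-182-5p, 0.746 without both and 0.793 with TMM factors. In replicate 2 the ratio of the passenger, 1.11, became 0.702 against hsa-miR-16-5p. The ratio of odds ratios of the guide, 2.05, was 1.01 without hsa-miR-182-5p and 1.05 without both, no longer past the threshold. The odds ratio of the strands by medium, 1.42, ranged from 0.414 without replicate 2 to 1.44 without replicate 1, and was 1.42 with the replicates pooled or 0.5 added. The cause of these changes was not tested, beyond the make-up of the totals. Of 84 alternatives over the 11 results on both strands that have a test, 55 kept direction and side of the threshold. The 84 include log2 fold changes with a replicate or a medium left out, which had no test and could not count as kept. 3 passenger reads in replicate 1 limit every statement on it there.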
